A study of Homo sapiens with 16 samples.

Results

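The genes described here are 32 genes of fatty acid activation and oxidation, taken by symbol from a table of 35106 gene rows. The rule that names them uses their place in the pathway and no measured value. The genes were nevertheless chosen with earlier results of these data known. They cover the acyl-CoA synthetases that activate a fatty acid, the carnitine enzymes that carry it into the mitochondrion, the enzymes of beta-oxidation in mitochondria and peroxisomes, and a pair of nuclear receptors. RNA sequencing was done on 16 libraries of 2 human breast cancer cell lines, in a search for markers of the response to MitoQ, a ubiquinone coupled to a triphenylphosphonium cation that draws it into mitochondria. The groups were MDA-MB-231 cells given 500 nM MitoQ for 48 h (n = 5) and MDA-MB-231 controls (n = 5), both at passage 25, and SKBR3 cells given the same dose and time (n = 3) and SKBR3 controls (n = 3), both at passage 10. MDA-MB-231 comes from the pleural effusion of an adenocarcinoma and lacks hormone receptors and amplified HER2, and SKBR3 carries an amplified ERBB2 (HER2) gene. All cells grew in high-glucose medium with serum. The sources used here do not say what the controls received or whether replicates were separate cultures, so that p-values measure only the spread between these libraries, which may be technical.

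A long-chain fatty acid is first joined to coenzyme A by an ACSL enzyme. CPT1 at the outer mitochondrial membrane exchanges the coenzyme A for carnitine, the carrier SLC25A20 takes the acylcarnitine across the inner membrane, and CPT2 restores the acyl-CoA in the matrix. Each turn of beta-oxidation then consists of a dehydrogenation, a hydration, a second dehydrogenation and a thiolytic cleavage, which yields acetyl-CoA, reduced NAD and electrons that reach ubiquinone through the electron transfer flavoprotein. Double bonds in the chain need the isomerases ECI1 and ECI2 and the reductase DECR1, very long chains are shortened first in peroxisomes, and PPARA and PPARD are fatty acid receptors that activate many genes of the pathway.

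Libraries held 14723152 to 29294865 estimated counts. Levels are CPM, counts relative to library size, on a scale normalised over all 16 libraries. Changes are given as log2 fold change ± SE, by the quasi-likelihood test of edgeR with p-values adjusted over all genes tested, and a gene was called at an adjusted p under 0.05. Summed marker genes of the lines fitted the labels, with the SKBR3 markers summing to 11720 to 13990 CPM in SKBR3 and 989.5 to 1221 CPM in MDA-MB-231. These sums weigh the abundant genes most. CDH1 was put on the SKBR3 list but did not mark that line here. Its mean was 2.756 CPM in SKBR3 controls and 2.565 CPM in MDA-MB-231 controls. Markers of other cells were low in all groups, with sums of at most 2.43 CPM for leukocytes and at most 19.7 CPM for adipocytes. Of the 6 adipocyte markers, RETN and CIDEA were at 0 in all groups, and the other genes made up the sum. Fibroblast and endothelial markers summed to 8.86 to 11.8 CPM in MDA-MB-231 MitoQ libraries and 11.7 to 14.1 CPM in their controls, and to 34.6 to 39.9 CPM in SKBR3 MitoQ libraries and 29.6 to 35.9 CPM in theirs, and hepatocyte markers to at most 0.735 CPM. The adipocyte sum was 17.4 to 19.7 CPM in MDA-MB-231 MitoQ libraries and 14 to 16.3 CPM in their controls, and the part of these markers in the results was not tested. Within its group, MDA-MB-231 MitoQ 2 stood apart from the other libraries in its counts over all genes. Among the SKBR3 controls, libraries 1 and 3 differed the most from each other. The counts of members called with MitoQ and for the interaction are therefore also given without each of these libraries. In bulk libraries, fewer cells with a transcript and less RNA per cell cannot be told apart.

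With MitoQ, most of the mitochondrial beta-oxidation genes were lower in both lines, while the receptor genes PPARA and PPARD were higher in both. In MDA-MB-231, 29 of 32 members were called, 10 higher and 19 lower, in a comparison in which 57.5% of all 15304 genes tested were called, 29.9% of them being higher calls and 27.6% lower calls, both as shares of the genes tested. In SKBR3, 31 members were tested and 19 were called, 4 higher and 15 lower, against 28% of all 15026 genes (13.8% higher and 14.1% lower). The count of higher members was thus close to the background in both lines, and the count of lower members was above it. The median log2 fold change of the members was -0.20 in MDA-MB-231, where that of all genes was 0.012, and -0.12 in SKBR3, where that of all genes was -0.00060. No member changed by as much as 2-fold in either line, whereas 6.72% of all genes were called with at least that change in MDA-MB-231 and 0.912% in SKBR3. Libraries of the MitoQ and control groups did not overlap for 24 of 32 members in MDA-MB-231, against 44.1% of all genes, and for 22 of 31 in SKBR3, against 40% of all genes. Without MDA-MB-231 MitoQ 2 the counts were 10 higher and 18 lower, and without SKBR3 control 3 they were 8 higher and 13 lower in that line. Without SKBR3 control 1 they were 4 higher and 13 lower. The 4 members added on the higher side without SKBR3 control 3 were ACAA1, ACAD10, CPT2 and ECI1, and the 2 lost on the lower side were ACSL1 and ECHS1.

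The lower calls of both lines shared 13 genes, which were 13 of the 19 of MDA-MB-231 and 13 of the 15 of SKBR3. They were ACSL1 and ACSL3 of the activating step, ACADVL, ACADM, ECHS1, HADHA, HADHB, HADH and ACAA2 of the mitochondrial spiral, DECR1, HSD17B10, ACAT1 and the peroxisomal HSD17B4. Over all genes tested, 27.6% were called lower in MDA-MB-231 and 14.1% in SKBR3. The share called lower in both lines was not computed, so the overlap is a description. With DESeq2 the SKBR3 calls of ACSL1 (adjusted p = 0.103) and ECHS1 (adjusted p = 0.0521) were lost. Both were also lost without single libraries, as given below. Only PPARA, PPARD and CPT1B were called higher in both lines, CRAT was higher in MDA-MB-231 and lower in SKBR3, and CPT2 was called in neither. Summed over the 32 genes, the level was 1701 ± 35.0 CPM with MitoQ and 2049 ± 29.7 CPM in controls of MDA-MB-231 (SD, n = 5 each). In SKBR3 it was 2455 ± 30.5 CPM with MitoQ and 2786 ± 63.9 CPM in controls (SD, n = 3 each). These sums are a description and weigh the abundant genes most.

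**Figure D1:**
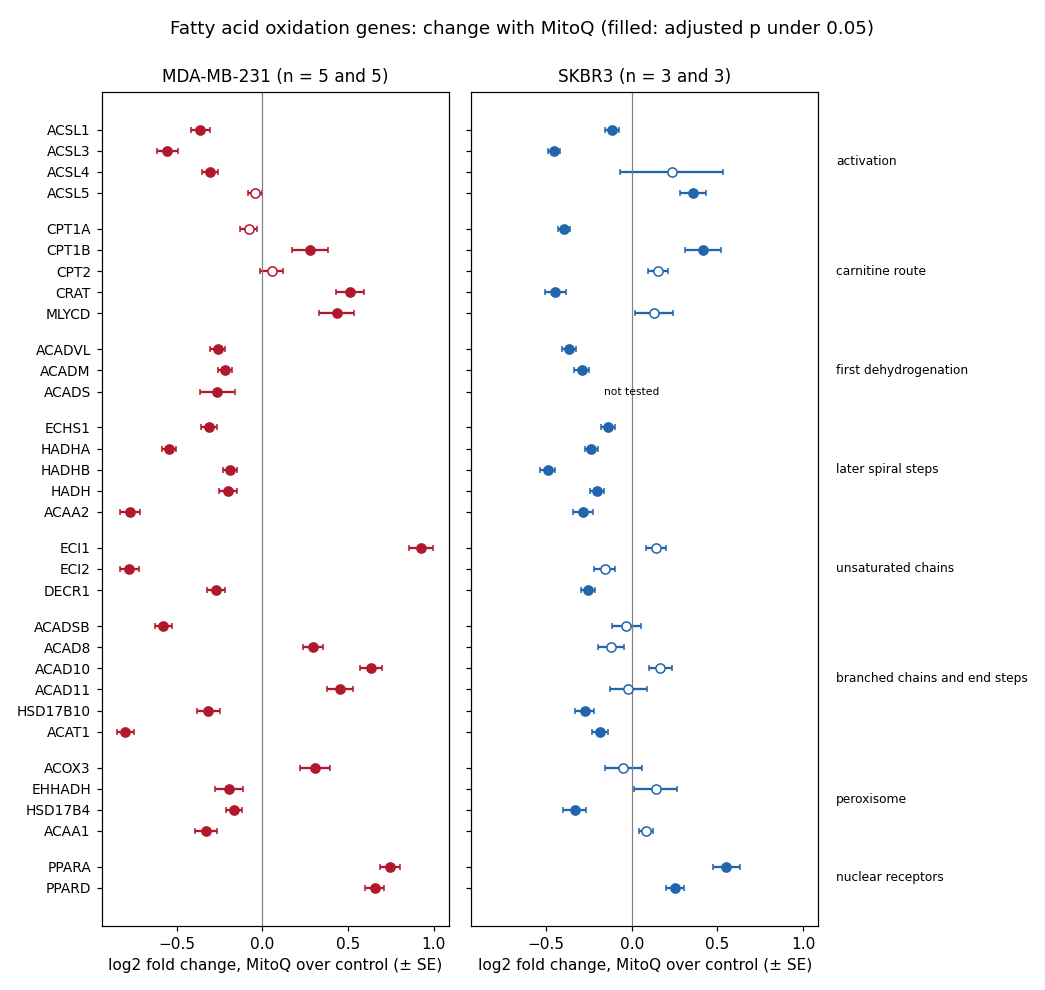
Log2 fold change of each of the 32 genes, MitoQ over control, with SE bars, in MDA-MB-231 (left) and SKBR3 (right), grouped by step; filled points have an adjusted p under 0.05. The genes of the first dehydrogenation and the later spiral steps lie left of 0 in both panels (ACADS was not tested in SKBR3), PPARA and PPARD lie right of 0 in both, and CRAT lies on opposite sides.

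HADHA and HADHB share a promoter region. They code for the alpha and beta subunits of the mitochondrial trifunctional protein, which carries out the last 3 steps of the spiral on long chains, and they lie head to head on chromosome 2 (GRCh38; HADHA 26190635 to 26244726 on the minus strand, HADHB 26243170 to 26290468 on the plus strand). Their RefSeq start sites are 307 bases apart. The 250 bases before each start are printed because the genes that share them were lower by unequal amounts; capitals mark the 194 bases common to both, which read as reverse complements of each other (GRCh38.p14, HADHA chr2:26244633-26244882, minus strand; HADHB chr2:26244689-26244938, plus strand).
HADHA: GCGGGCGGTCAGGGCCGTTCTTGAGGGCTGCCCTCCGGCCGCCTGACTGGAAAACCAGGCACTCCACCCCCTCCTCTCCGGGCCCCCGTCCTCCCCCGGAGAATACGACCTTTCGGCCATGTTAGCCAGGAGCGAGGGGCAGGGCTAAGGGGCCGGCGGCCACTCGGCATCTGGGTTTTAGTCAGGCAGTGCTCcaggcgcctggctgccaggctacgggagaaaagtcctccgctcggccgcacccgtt
HADHB: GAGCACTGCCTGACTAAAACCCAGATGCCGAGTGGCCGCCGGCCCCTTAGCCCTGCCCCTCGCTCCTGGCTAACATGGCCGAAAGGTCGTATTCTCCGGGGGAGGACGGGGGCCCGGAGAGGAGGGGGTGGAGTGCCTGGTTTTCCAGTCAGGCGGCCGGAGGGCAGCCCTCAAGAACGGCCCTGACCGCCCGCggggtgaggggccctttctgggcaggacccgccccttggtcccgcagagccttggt

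The stretch before PPARA, a receptor gene called higher in both lines, is shown because it was the sole member window with the NRF1 motif searched for (GRCh38.p14, chr22:46150538-46150787, plus strand). Its capitals mark the palindrome bound by NRF1, a transcription factor of genes for mitochondrial proteins.
PPARA: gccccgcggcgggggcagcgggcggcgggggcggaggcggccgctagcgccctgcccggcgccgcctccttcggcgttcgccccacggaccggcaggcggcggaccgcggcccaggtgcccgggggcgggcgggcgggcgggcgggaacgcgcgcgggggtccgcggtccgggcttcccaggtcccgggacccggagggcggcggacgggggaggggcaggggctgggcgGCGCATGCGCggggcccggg

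RefSeq promoter windows, 250 bases before to 50 after the start, were found for 26 of the 32 members, 38 windows in all. Each of 5 motifs was searched on both strands, and the share of all 35116 windows with it follows each. The NRF1 palindrome printed in capitals above (1.24% of all windows) occurred in PPARA alone, starting 20 bases before the start site, and the CEBP-ATF element TGATGNAA (3.62%) in HSD17B4 alone. The letters of the PPAR response element, AGGTCA repeated after 1 base (0.0228%), of the ERR element, TCAAGGTCA (0.353%), and of the E-box, CACGTG (7.26%), were in none of the 38 windows. Such a match is a description of letters in this window and no evidence of binding. The median GC content of the members' windows was 68.0%, against 58.7% over all windows.

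Of the 4 activating genes 3 fell in MDA-MB-231, where 27.6% of all genes were called lower. In SKBR3, 2 of the 4 fell and 1 rose, against 14.1% of all genes lower and 13.8% higher. ACSL3, the synthetase of lipid droplets and the endoplasmic reticulum, changed the most of the 4. In MDA-MB-231 it had 150.2, 118.6, 142, 138 and 123 CPM in the MitoQ libraries, against 190.3, 213, 201, 205 and 193 CPM in the controls. The groups lay well apart (log2 fold change -0.55 ± 0.060, adjusted p = 2.35e-07). In SKBR3, ACSL3 stood at 162, 164 and 172 CPM with MitoQ and at 227, 222 and 222 CPM in controls, again without overlap (-0.45 ± 0.036, adjusted p = 1.64e-06). ACSL1, which in many tissues supplies mitochondria with acyl-CoA, averaged 40.4 ± 2.12 CPM with MitoQ and 52.7 ± 2.82 CPM in MDA-MB-231 controls (-0.36 ± 0.055, adjusted p = 1.46e-05). In SKBR3 its difference was small (-0.12 ± 0.039, adjusted p = 0.0393), and that call was lost whichever 1 of the 6 libraries was left out (adjusted p = 0.0526 to 0.306).

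ACSL4 and ACSL5 set the control cells of the lines apart. ACSL4 prefers arachidonate and other polyunsaturated acids and is known for the lipids it supplies to ferroptosis. It fell in MDA-MB-231, to 188.1 ± 10.6 CPM with MitoQ, against 235.7 ± 5.11 CPM in controls (-0.30 ± 0.046, adjusted p = 1.6e-05). In SKBR3 its counts were low, with 24, 24 and 22 counts in the MitoQ libraries and 20, 16 and 17 counts in the controls. In controls, SKBR3 had 0.921 ± 0.265 CPM (n = 3) and MDA-MB-231 235.7 ± 5.11 CPM (n = 5), a log2 difference of -8.06 ± 0.090 (adjusted p = 2.42e-25). ACSL5, the form of the outer mitochondrial membrane and the gut, was 6.55-fold lower in SKBR3 controls than in MDA-MB-231 controls. With MitoQ it rose in SKBR3, at 16.4, 16.8 and 18 CPM, against 13.6, 13.2 and 12.8 CPM in controls (0.36 ± 0.078, adjusted p = 0.00343). It did not pass the test in MDA-MB-231 (-0.045 ± 0.042, adjusted p = 0.384), and the difference between the lines was called (interaction 0.44 ± 0.076, adjusted p = 6.6e-05).

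In the carnitine route, 3 of 5 genes were higher and none lower in MDA-MB-231, while 1 was higher and 2 lower in SKBR3. Over all genes, 29.9% were called higher and 27.6% lower in MDA-MB-231, and 13.8% and 14.1% in SKBR3. The total called in the route in MDA-MB-231 is near the 57.5% of all genes called there. CPT1A is the liver form of the enzyme that commits long-chain acids to mitochondria and the step inhibited by malonyl-CoA (ENSG00000110090, chromosome 11, 68754620 to 68844410, GRCh38). In SKBR3 it had 237, 239.6 and 238 CPM with MitoQ and 314, 302 and 309 CPM in controls. All MitoQ libraries lay below all controls (-0.39 ± 0.035, adjusted p = 4.63e-06). In MDA-MB-231 it had 44.2, 47.5, 42.5, 43.7 and 42.8 CPM with MitoQ and 48.9, 46.4, 49.1, 45.2 and 47.2 CPM in controls. Those groups overlapped and the test was not passed (-0.080 ± 0.050, adjusted p = 0.184), although limma voom with quality weights called the gene (adjusted p = 0.0299) and so did 1 model fitted to the 16 libraries together (adjusted p = 0.0360). The effect of MitoQ on CPT1A differed between the lines (interaction -0.27 ± 0.062, adjusted p = 0.00145). The control level was 6.59-fold higher in SKBR3 than in MDA-MB-231.

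CPT1B, the muscle form, moved the other way at a much lower level. It had 18.4, 16.04 and 14.0 CPM in SKBR3 MitoQ libraries and 11.7, 11.1 and 12.8 CPM in the controls (0.42 ± 0.11, adjusted p = 0.00834). In MDA-MB-231 it had 12.4, 10.8, 9.16, 13.5 and 12.5 CPM with MitoQ and 10.3, 8.44, 10.6, 11.2 and 8.55 CPM in controls. These groups overlapped (0.28 ± 0.10, adjusted p = 0.0296), and the call was lost without control 2 or 5 or without MitoQ 1, 4 or 5 (adjusted p = 0.0607 to 0.0910). Of the 31-base stretches of CPT1B, 86.0% also occur in the read-through gene CHKB-CPT1B, so the counts of the pair are uncertain. The read-through gene itself was not called in either line (-0.0090 ± 0.20 in MDA-MB-231, adjusted p = 0.974, and 0.11 ± 0.12 in SKBR3, adjusted p = 0.558). The gene just upstream, CHKB, rose in SKBR3 (0.35 ± 0.060, adjusted p = 0.000778) and did not pass the test in MDA-MB-231 (-0.0060 ± 0.075, adjusted p = 0.957); these neighbours were chosen after the values of CPT1B were seen.

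CPT2, the inner-membrane transferase, had 17.5, 18.8, 18.6, 20.6 and 17.9 CPM in MDA-MB-231 MitoQ libraries and 20, 17.15, 19.2, 17.1 and 17.8 CPM in controls (0.054 ± 0.066, adjusted p = 0.508). In SKBR3 it had 39.2, 40.0 and 41.4 CPM with MitoQ and 34.1, 33.7 and 38.6 CPM in controls. All MitoQ libraries of SKBR3 were above all controls, but the test was not passed (0.15 ± 0.059, adjusted p = 0.0667); without SKBR3 control 3 it was (adjusted p = 0.00651).

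CRAT, carnitine acetyltransferase, was the sole member called in opposite directions (ENSG00000095321, chromosome 9, 129094810 to 129111189). The enzyme exchanges short acyl groups between coenzyme A and carnitine, and so buffers acetyl-CoA. In MDA-MB-231 it had 21.2, 17.9, 22.0, 23.7 and 24.0 CPM with MitoQ and 17.6, 16.3, 15.6, 14.0 and 14.0 CPM in controls, a rise without overlap (0.51 ± 0.083, adjusted p = 3.39e-05). In SKBR3 it had 25.4, 23.8 and 24.9 CPM with MitoQ and 32.8, 31.6 and 34.6 CPM in controls, a fall without overlap (-0.45 ± 0.061, adjusted p = 0.000119). The interaction was the most negative of any member (-0.91 ± 0.12, adjusted p = 2.62e-06). MLYCD, malonyl-CoA decarboxylase, removes the inhibitor of CPT1. It rose in MDA-MB-231 (0.43 ± 0.10, adjusted p = 0.00136) with overlapping libraries and was not called in SKBR3 (0.13 ± 0.11, adjusted p = 0.438).

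The carrier between CPT1 and CPT2 is no member, but the route turns on it. SLC25A20 fell in MDA-MB-231, to 5.85 ± 0.304 CPM with MitoQ, against 10.4 ± 1.07 CPM in controls (-0.81 ± 0.089, adjusted p = 2.62e-07). In SKBR3 the gene had 2 counts over the 3 MitoQ libraries and 0 counts over the 3 controls, and was not tested there. The SKBR3 controls allow up to 0.0490 CPM, 3 counts over the group, for counting error only. Their level was thus at least 206-fold lower than the 10.1 CPM pooled over the MDA-MB-231 controls. The electron transfer genes downstream of the acyl-CoA dehydrogenases moved as follows. ETFDH, which hands the electrons to ubiquinone, fell to 14.9 ± 1.02 CPM in MDA-MB-231 with MitoQ, against 19.95 ± 0.978 CPM in controls (-0.40 ± 0.063, adjusted p = 2.55e-05), and to 17.8 ± 1.033 CPM in SKBR3 with MitoQ, against 32.3 ± 1.15 CPM in controls (-0.89 ± 0.068, adjusted p = 1.04e-06). The fall was deeper in SKBR3 (interaction -0.45 ± 0.097, adjusted p = 0.000853). ETFA fell in both lines (-0.56 ± 0.050 in MDA-MB-231, adjusted p = 1.49e-08, and -0.32 ± 0.037 in SKBR3, adjusted p = 3.11e-05). Its partner subunit ETFB rose in MDA-MB-231 (0.46 ± 0.066, adjusted p = 7.78e-06) and was lower in SKBR3 (-0.23 ± 0.070, adjusted p = 0.0241), a call lost whichever SKBR3 library was left out (adjusted p = 0.0565 to 0.0899).

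**Figure D2:**
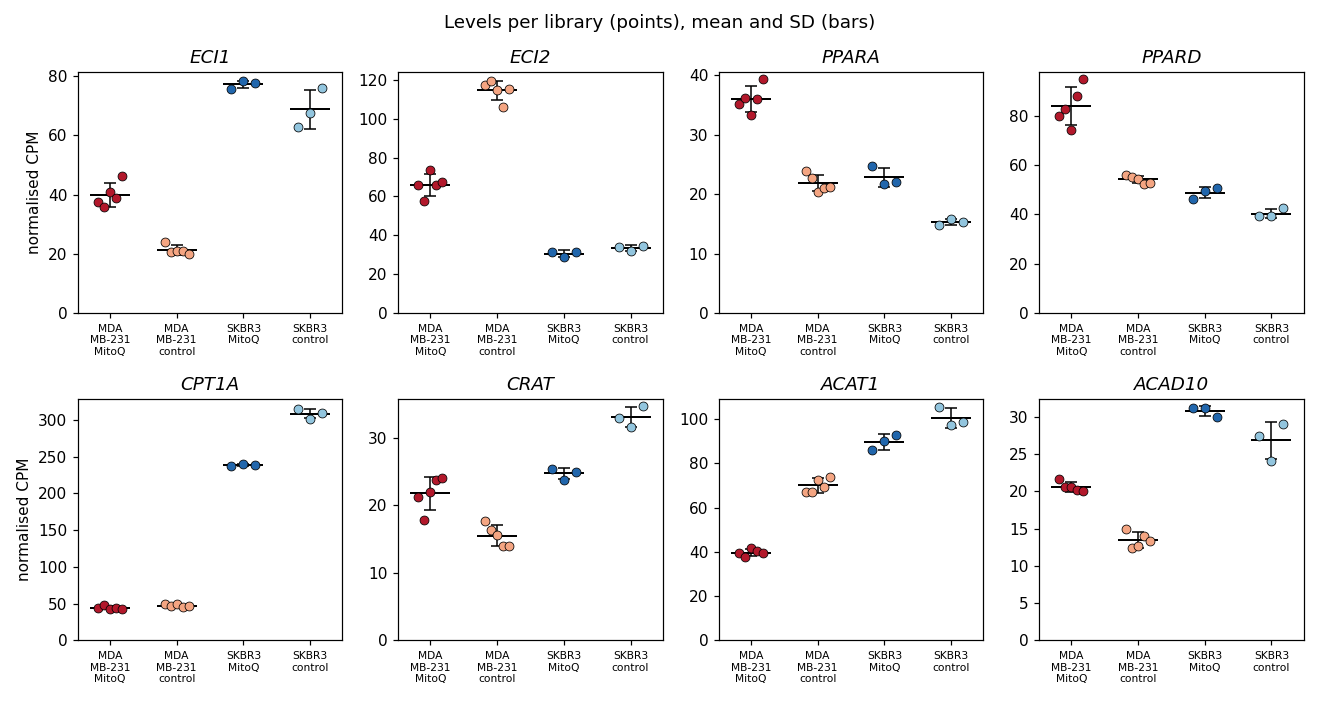
Normalised CPM in each library (points) with the mean and SD for 8 genes, in MDA-MB-231 MitoQ and control cells and in SKBR3 MitoQ and control cells. MitoQ and control points separate for CRAT in opposite directions in the 2 lines, and CPT1A separates in SKBR3 alone.

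The first dehydrogenation of the spiral is made by enzymes of different chain length, ACADVL for very long and long chains, ACADM for medium and ACADS for short ones. ACADVL, the most abundant of them, had 155, 146, 158, 162 and 168 CPM in MDA-MB-231 MitoQ libraries, against 199, 193, 192, 187 and 187 CPM in controls (-0.26 ± 0.043, adjusted p = 4.29e-05). The SKBR3 libraries had 235, 242 and 237 CPM with MitoQ, against 294, 288 and 323 CPM in controls (-0.36 ± 0.041, adjusted p = 2.41e-05). ACADM, the medium-chain enzyme, averaged 56.1 ± 0.786 CPM with MitoQ and 66.3 ± 1.47 CPM in controls of MDA-MB-231 (-0.22 ± 0.042, adjusted p = 0.000165), and 60.4 ± 1.19 CPM with MitoQ and 72.95 ± 1.10 CPM in controls of SKBR3 (-0.29 ± 0.043, adjusted p = 0.000242). ACADS was called lower in MDA-MB-231 (-0.26 ± 0.10, adjusted p = 0.0338) with overlapping groups, and the call was lost without control 1, 2, 3 or 5 or without MitoQ 1 or 2 (adjusted p = 0.0539 to 0.103). SKBR3 libraries held 7, 7 and 0 counts in the MitoQ libraries and 2, 2 and 8 counts in the controls, too few to be tested. No interaction was called in this step, where ACADVL gave -0.063 ± 0.067 (adjusted p = 0.529) and ACADM -0.030 ± 0.060 (adjusted p = 0.762).

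All 5 genes of the later spiral steps were called lower in both lines, against 27.6% of all genes in MDA-MB-231 and 14.1% in SKBR3. The log2 fold changes of the 5 genes were -0.77 to -0.19 in MDA-MB-231 and -0.49 to -0.14 in SKBR3. ECHS1 is the short-chain enoyl-CoA hydratase, HADH the short-chain hydroxyacyl-CoA dehydrogenase and ACAA2 the mitochondrial thiolase. ACAA2 (ENSG00000167315) fell the most in MDA-MB-231, with 17.2, 18.8, 19.2, 17.7 and 17.7 CPM in MitoQ libraries, against 31.2, 32.2, 33.6, 31.3 and 28.5 CPM in controls (-0.77 ± 0.061, adjusted p = 2.73e-09). Levels in SKBR3 were 46.0, 44.1 and 47.1 CPM with MitoQ and 58.8, 51.7 and 53.8 CPM in controls (-0.28 ± 0.057, adjusted p = 0.00192). The groups did not overlap in either line, and the fall was larger in MDA-MB-231 (interaction 0.53 ± 0.087, adjusted p = 3.64e-05). Of the 31-base stretches of ACAA2, 25.8% occur in transcripts of other genes. ECHS1 was the weakest of these in SKBR3 (-0.14 ± 0.040, adjusted p = 0.0180) and lost its call there without control 1 or 3 or without MitoQ 1 or 2 (adjusted p = 0.0569 to 0.148).

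The subunits of the trifunctional protein fell by unequal amounts, and the order turned round between the lines. HADHA had 157, 147, 158, 157 and 164 CPM in MDA-MB-231 MitoQ libraries and 242, 230.4, 233, 222 and 232 CPM in controls (-0.54 ± 0.042, adjusted p = 2.02e-09). HADHB had 78.1, 74.5, 77.3, 76.9 and 73.0 CPM with MitoQ and 89.9, 88.5, 87.1, 87.5 and 86.6 CPM in controls (-0.19 ± 0.041, adjusted p = 0.000631). In SKBR3, HADHA had 213, 211 and 215 CPM with MitoQ and 258, 239 and 244 CPM in controls (-0.24 ± 0.039, adjusted p = 0.000522). HADHB there had 77.2, 82.5 and 86.4 CPM with MitoQ and 115, 114 and 111 CPM in controls (-0.49 ± 0.044, adjusted p = 4.77e-06). HADHA therefore fell more in MDA-MB-231 (interaction 0.35 ± 0.061, adjusted p = 7.97e-05) and HADHB more in SKBR3 (interaction -0.26 ± 0.063, adjusted p = 0.00224).

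As a ratio of CPM within a library, HADHA over HADHB was 2.01, 1.97, 2.04, 2.05 and 2.24 in MDA-MB-231 MitoQ libraries and 2.69, 2.60, 2.67, 2.53 and 2.68 in controls. In SKBR3 it was 2.76, 2.56 and 2.48 with MitoQ and 2.24, 2.09 and 2.19 in controls. The ratio was lower with MitoQ in the first line and higher with MitoQ in the second, without overlap in either. The gene bodies overlap on opposite strands, yet no 31-base stretch of the coding transcripts of HADHA lies reversed in those of HADHB. HADHA shares 17.5% of its stretches with other genes, 12.7% with its pseudogene HADHAP2.

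**Figure D3:**
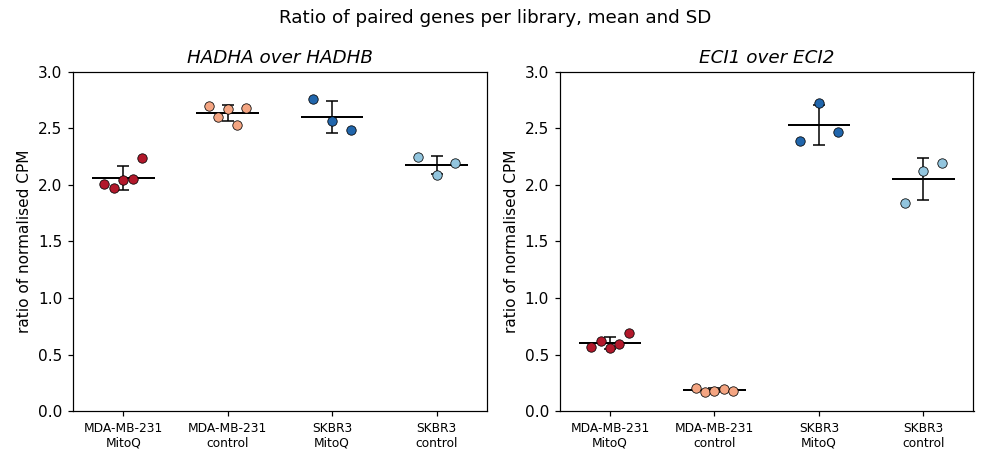
Ratio of CPM within each library (points, with mean and SD) for HADHA over HADHB (left) and ECI1 over ECI2 (right), in MitoQ and control cells of MDA-MB-231 and SKBR3. The HADHA over HADHB ratio lies lower with MitoQ in MDA-MB-231 and higher with MitoQ in SKBR3; the ECI1 over ECI2 ratio lies higher with MitoQ in both lines.

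The isomerases for unsaturated chains moved in opposite directions in MDA-MB-231. ECI1 is the mitochondrial enoyl-CoA isomerase (ENSG00000167969, chromosome 16, 2239395 to 2252300), and ECI2 (ENSG00000198721, chromosome 6, 4115689 to 4135597) works in both peroxisomes and mitochondria. ECI1 had 37.4, 35.8, 40.9, 38.8 and 46.3 CPM in MDA-MB-231 MitoQ libraries, against 24.1, 20.5, 20.9, 20.9 and 19.96 CPM in controls. This was the largest change with MitoQ of any member in either line, 1.90-fold (0.93 ± 0.070, adjusted p = 1.5e-09). ECI2 had 65.7, 57.6, 73.6, 65.7 and 67.2 CPM with MitoQ, against 117, 119, 115, 106 and 115 CPM in controls (-0.78 ± 0.056, adjusted p = 8.4e-10).

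In SKBR3 neither isomerase passed the test. ECI1 had 75.7, 78.2 and 77.6 CPM with MitoQ and 62.7, 67.5 and 75.9 CPM in controls (0.14 ± 0.056, adjusted p = 0.0774), and was called without SKBR3 control 3 (adjusted p = 0.00155). ECI2 had 31.6, 28.7 and 31.5 CPM with MitoQ and 34.1, 31.8 and 34.6 CPM in controls (-0.16 ± 0.062, adjusted p = 0.0701). Both effects were smaller than in MDA-MB-231 (interaction -0.74 ± 0.11 for ECI1, adjusted p = 6.65e-06, and 0.66 ± 0.093 for ECI2, adjusted p = 5.26e-06). The ratio of ECI1 to ECI2 averaged 0.605 ± 0.0531 with MitoQ and 0.186 ± 0.0145 in controls of MDA-MB-231, and 2.53 ± 0.176 with MitoQ and 2.05 ± 0.189 in controls of SKBR3, without overlap in either line. DECR1, the dienoyl-CoA reductase, fell in both lines (-0.27 ± 0.051 in MDA-MB-231, adjusted p = 0.000161, and -0.26 ± 0.041 in SKBR3, adjusted p = 0.000401). The 95% interval of the difference between the lines is -0.07 to 0.18.

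Among the dehydrogenases of branched chains and the end steps, 3 genes rose and 3 fell in MDA-MB-231. ACAT1, the mitochondrial acetoacetyl-CoA thiolase of ketone body and isoleucine metabolism, fell the most of all members (ENSG00000075239, chromosome 11, 108121516 to 108147776). It had 39.4, 37.6, 41.6, 40.4 and 39.3 CPM with MitoQ, against 66.9, 67.1, 72.6, 69.5 and 74.1 CPM in controls (-0.80 ± 0.047, adjusted p = 4.74e-11). In SKBR3 the libraries held 86.0, 90.2 and 93.0 CPM with MitoQ, against 106, 97.2 and 98.8 CPM in controls (-0.19 ± 0.045, adjusted p = 0.00628), a call lost without MitoQ 1 (adjusted p = 0.0504). The difference between the lines was called (interaction 0.66 ± 0.072, adjusted p = 1.35e-07).

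ACADSB, the short/branched-chain dehydrogenase of isoleucine breakdown, had 28.3, 27.6, 29.8, 28.2 and 28.6 CPM in MDA-MB-231 MitoQ libraries and 43.4, 42.4, 40.4, 45.4 and 44.4 CPM in controls (-0.58 ± 0.049, adjusted p = 8.75e-09). In SKBR3 its groups overlapped, at 20.2, 19.0 and 16.8 CPM with MitoQ and 18.5, 19.6 and 18.6 CPM in controls (-0.031 ± 0.082, adjusted p = 0.825; interaction 0.59 ± 0.090, adjusted p = 1.68e-05). HSD17B10, a hydroxyacyl-CoA dehydrogenase of the same pathway that is also a subunit of mitochondrial RNase P, was lower in both lines (-0.32 ± 0.065 in MDA-MB-231, adjusted p = 0.000380, and -0.28 ± 0.056 in SKBR3, adjusted p = 0.00221).

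The genes that rose were ACAD8, the isobutyryl-CoA dehydrogenase of valine breakdown, and ACAD10 and ACAD11, less studied members of the family. ACAD10 had 21.7, 20.6, 20.5, 20.1 and 20.01 CPM in MDA-MB-231 MitoQ libraries, against 15.0, 12.4, 12.6, 14.0 and 13.3 CPM in controls (0.64 ± 0.064, adjusted p = 8.78e-08). For SKBR3 they were 31.1, 31.1 and 30.0 CPM with MitoQ and 27.5, 24.1 and 28.97 CPM in controls, with no overlap but an adjusted p of 0.0791 (0.17 ± 0.067), which became 0.0173 without SKBR3 control 3. ACAD11 rose 1.37-fold and ACAD8 1.23-fold in MDA-MB-231 (adjusted p = 4.84e-05 and adjusted p = 0.000233), and neither was called in SKBR3 (adjusted p = 0.920 and adjusted p = 0.272). The interaction was called for all of them (-0.42 ± 0.099 for ACAD10, adjusted p = 0.00161, -0.43 ± 0.14 for ACAD11, adjusted p = 0.0170, and -0.37 ± 0.095 for ACAD8, adjusted p = 0.00330), and that of ACAD11 was lost without SKBR3 MitoQ 3 (adjusted p = 0.0598). Of the 31-base stretches of ACAD11, 65.3% also occur in transcripts of other genes, so its counts are uncertain.

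In the peroxisome the 4 members divided. HSD17B4, which joins the hydratase and dehydrogenase steps in a single protein, was lower in both lines (-0.17 ± 0.048 in MDA-MB-231, adjusted p = 0.00577, and -0.33 ± 0.065 in SKBR3, adjusted p = 0.00160), the first call being lost with plain library totals (adjusted p = 0.0523). ACAA1, the peroxisomal thiolase, fell in MDA-MB-231, to 42.2 ± 4.51 CPM with MitoQ, against 53.8 ± 2.93 CPM in controls (-0.33 ± 0.065, adjusted p = 0.000226). In SKBR3 it stood at 298.6 ± 11.3 CPM with MitoQ and 277.9 ± 15.96 CPM in controls and was not called (0.081 ± 0.040, adjusted p = 0.157), but was called without SKBR3 control 3 (adjusted p = 0.0191). The lines differed (interaction 0.45 ± 0.093, adjusted p = 0.000453). EHHADH, the peroxisomal bifunctional enzyme, was lower in MDA-MB-231 by little (-0.19 ± 0.080, adjusted p = 0.0451). The call was lost without control 1, 3 or 4 or without MitoQ 1, 4 or 5 (adjusted p = 0.0783 to 0.129). Plain library totals also lost it (adjusted p = 0.176). ACOX3, an oxidase of branched chains, was higher in MDA-MB-231 (0.31 ± 0.088, adjusted p = 0.00599), and neither EHHADH nor ACOX3 was called in SKBR3 (adjusted p = 0.456 and adjusted p = 0.780).

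The receptor genes rose in both lines. PPARA (ENSG00000186951, chromosome 22, 46150521 to 46243756), the receptor that raises fatty acid oxidation in fasting liver, had 35.1, 36.2, 33.2, 36.0 and 39.3 CPM in MDA-MB-231 MitoQ libraries, against 23.8, 22.7, 20.3, 21.0 and 21.3 CPM in controls (0.74 ± 0.060, adjusted p = 4.36e-09). The SKBR3 libraries had 24.7, 21.7 and 22.0 CPM with MitoQ, against 14.8, 15.8 and 15.3 CPM in controls (0.55 ± 0.078, adjusted p = 0.000166). The groups lay apart in both lines, and the interaction was not called (-0.15 ± 0.10, adjusted p = 0.274). PPARD (ENSG00000112033), the widely expressed receptor, had 80.0, 82.7, 74.4, 87.9 and 95.0 CPM in MDA-MB-231 MitoQ libraries and 56.1, 55.0, 54.2, 52.5 and 52.9 CPM in controls (0.66 ± 0.056, adjusted p = 9.5e-09). SKBR3 libraries held 46.2, 49.5 and 50.7 CPM with MitoQ and 39.2, 39.4 and 42.4 CPM in controls, a smaller rise (0.25 ± 0.053, adjusted p = 0.00277; interaction -0.36 ± 0.090, adjusted p = 0.00292).

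Known PPAR targets outside the 32 genes moved in both directions. Of 18 tested genes of the PPAR target and lipid droplet list, 9 were higher and 8 lower in MDA-MB-231, and of 15 tested in SKBR3, 3 were higher and 3 lower, against 57.5% of all genes called in MDA-MB-231 and 28% in SKBR3. PDK4, which holds back pyruvate dehydrogenase, was low in all groups and fell in both lines, to 0.743 ± 0.139 CPM with MitoQ, against 2.34 ± 0.419 CPM in controls of MDA-MB-231 (-1.62 ± 0.19, adjusted p = 7.24e-07), and to 1.67 ± 0.189 CPM with MitoQ, against 2.90 ± 0.121 CPM in controls of SKBR3 (-0.80 ± 0.18, adjusted p = 0.00454). ANGPTL4, an inhibitor of lipoprotein lipase, also fell in both (-1.30 ± 0.13, adjusted p = 1.08e-07, and -1.15 ± 0.20, adjusted p = 0.000838). PLIN2, a lipid droplet coat protein, fell in MDA-MB-231 (-0.77 ± 0.052, adjusted p = 3.28e-10) and was not called in SKBR3 (0.070 ± 0.10, adjusted p = 0.672). G0S2, an inhibitor of triglyceride lipase, rose in MDA-MB-231, to 152 ± 13.85 CPM with MitoQ, against 67.5 ± 4.34 CPM in controls (1.20 ± 0.061, adjusted p = 5.58e-12).

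Among the PPAR, PGC-1 and AMPK regulators, 4 of 20 tested genes were higher and 7 lower in MDA-MB-231, and 4 of 19 were higher and 2 lower in SKBR3. Both totals are near the shares over all genes, 57.5% in MDA-MB-231 and 28% in SKBR3. PPARGC1A, the coactivator PGC-1 alpha, was not called in MDA-MB-231, with 3.20 ± 0.361 CPM with MitoQ and 3.33 ± 0.484 CPM in controls, and had 10 counts over the SKBR3 MitoQ libraries and 6 over the SKBR3 controls. Its relative PPARGC1B fell in MDA-MB-231 (-0.66 ± 0.061, adjusted p = 2.33e-08), as did LPIN1 (-0.88 ± 0.14, adjusted p = 0.000377), a phosphatase that also acts as a coactivator. ESRRA, an orphan receptor of oxidative genes, was lower in MDA-MB-231 (-0.22 ± 0.064, adjusted p = 0.00533) and higher in SKBR3 (0.23 ± 0.063, adjusted p = 0.0168), and the effects differed (interaction 0.50 ± 0.099, adjusted p = 0.000309). The SKBR3 call of ESRRA was lost without control 1 or without MitoQ 2 or 3 (adjusted p = 0.0547 to 0.0709). RXRA, the dimer partner of the PPARs, rose in SKBR3 (0.39 ± 0.037, adjusted p = 6.76e-06).

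The remaining lists of the pathway held calls in both directions. The background to their counts is again 57.5% of all genes called in MDA-MB-231 (29.9% higher and 27.6% lower) and 28% in SKBR3 (13.8% higher and 14.1% lower), and totals near these shares are no result about a list. Of the acyl-CoA synthetase and uptake list, 4 of 18 tested genes were higher and 6 lower in MDA-MB-231, and 1 of 18 was higher and 5 lower in SKBR3. DBI, the acyl-CoA binding protein, fell in both lines, to 81.9 ± 13.2 CPM with MitoQ, against 223.7 ± 10.2 CPM in controls of MDA-MB-231 (adjusted p = 3.13e-08), and to 115 ± 3.72 CPM with MitoQ, against 153.6 ± 14.4 CPM in controls of SKBR3 (adjusted p = 0.000399). Of 25 tested genes of the peroxisomal list, 7 were higher and 7 lower in MDA-MB-231, and 1 was higher and 9 lower in SKBR3. CAT, the catalase that removes the peroxide made by peroxisomal oxidases, fell in both lines (-0.73 ± 0.059, adjusted p = 4.18e-09, and -0.47 ± 0.055, adjusted p = 3.91e-05). Of the carnitine route and electron transfer list, 3 of 15 tested genes were higher and 7 lower in MDA-MB-231, and 2 of 15 were higher and 6 lower in SKBR3. Of the thioesterases, 2 of 7 were higher and 2 lower in MDA-MB-231, and 2 of 8 were higher and 2 lower in SKBR3. Of the enzymes for odd chains, branched-chain amino acids and ketone bodies, 4 of 21 were higher and 9 lower in MDA-MB-231, and 2 of 22 were higher and 7 lower in SKBR3. BCKDHA, a subunit of the branched-chain keto acid dehydrogenase, rose in MDA-MB-231 (1.24 ± 0.092, adjusted p = 1.18e-09).

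The MitoQ effect differed between the lines for 17 of the 32 members, 9 with a higher and 8 with a lower value in SKBR3. The background was 34.1% of 17094 genes tested for the interaction over all 16 libraries (19.1% higher and 14.9% lower). Line and passage cannot be told apart in this comparison. Without MDA-MB-231 MitoQ 2 the member counts were 10 higher and 8 lower, and without SKBR3 control 3 they were 9 and 8. Without SKBR3 control 1 they were 10 and 8. The split depended on the scaling. With plain library totals 41.6% of all called interactions were positive, against 56.1% with scaling factors, and the median over the members was -0.021 in place of 0.071. The positive interactions were those of ECI2, ACAT1, ACADSB, ACAA2, ACAA1, ACSL5, HADHA, ACSL1 and ECHS1, of which all but ACSL5 and ACAA1 had a negative fitted value in both lines, the smaller one in SKBR3. The interaction of ECHS1 (0.22 ± 0.071, adjusted p = 0.0200) was lost with plain totals (adjusted p = 0.152), with the mitochondrially encoded genes left out (adjusted p = 0.0586) and without SKBR3 MitoQ 3 (adjusted p = 0.0646). The negative ones were those of CRAT, ECI1, ACAD11, ACAD10, ACAD8, PPARD, CPT1A and HADHB.

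In controls, the lines differed in which members were abundant, in a comparison in which line and passage cannot be told apart. Of the 32 members 28 were called between SKBR3 controls and MDA-MB-231 controls, 18 higher and 10 lower in SKBR3, against 86.5% of 16398 genes (42% higher and 44.4% lower), so the number called is close to the background. Libraries of the lines did not overlap for 26 members, against 83% of all genes. At least a 2-fold difference was called for 14 members, against 48% of all genes. The 4 genes highest in SKBR3 relative to MDA-MB-231 were DECR1 (2.99 ± 0.043, 7.96-fold), CPT1A (2.72 ± 0.039), ACAA1 (2.39 ± 0.047, 5.23-fold) and ECI1 (1.72 ± 0.066, 3.28-fold). The lowest were ACSL4, ACADS (-5.69 ± 0.21), ACSL5 (-2.71 ± 0.056) and ECI2 (-1.75 ± 0.051, 3.37-fold lower). Each of these 8 had an adjusted p of 1.78e-16 or less except ECI1, at 7.98e-16. Per kilobase of the principal transcript, DECR1 (242 CPM per kb), ACAA1 (156) and ACADVL (130.0) ranked highest of the members in SKBR3 controls, and ACADVL (82.5 CPM per kb), HADHA (76.3) and ECI2 (74.0) in MDA-MB-231 controls.

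**Figure D4:**
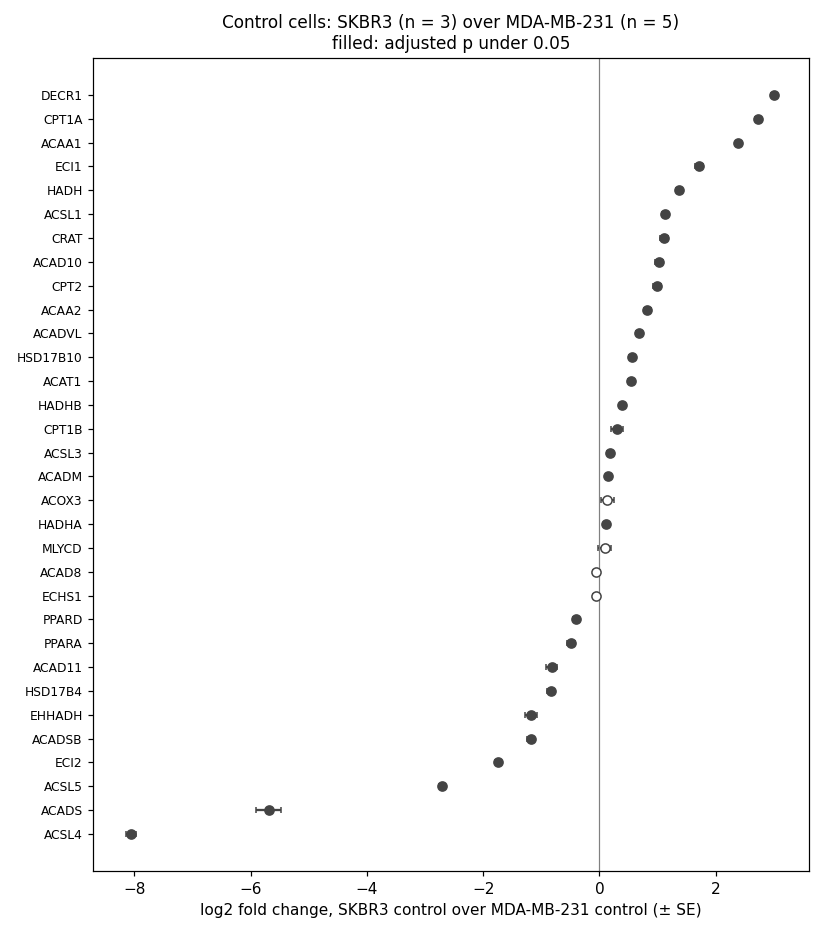
Log2 fold change of each of the 32 genes between control cells, SKBR3 control over MDA-MB-231 control, with SE bars and ordered by size. Filled points have an adjusted p under 0.05. DECR1, CPT1A and ACAA1 lie farthest right, and ACSL4 and ACADS farthest left.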

How the data were processed

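RNA was sequenced from 16 libraries of MDA-MB-231 and SKBR3 cells, MitoQ and control. The authors deposited 1 table of estimated counts for genes, all whole numbers; the submitters' processing notes name Salmon, edgeR and GRCh38, without versions, and the annotation is not given in the sources used here. Groups follow the labels.

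Low genes were removed by filterByExpr and libraries scaled by TMM before the test in edgeR 4.0.16 under R 4.3.3 (robust quasi-likelihood, two-sided F test, Benjamini-Hochberg adjustment over all genes tested, threshold 0.05), separately within each line, between the 8 controls, and as an interaction over all 16 libraries. Each SE was taken as the size of the log2 change divided by the root of F. The fits were checked on simulated data. CPM levels printed are scaled over all 16 libraries, so they may differ slightly from those behind a fold. The members, roles and lists were chosen with earlier results of these data known.

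Library values are printed for members called with an absolute log2 fold change of at least 0.58, for opposite calls, for interactions of at least 0.58, and for CPT1A, CPT1B, CPT2 and PPARA; those of ACSL3, ACSL5, ACADVL, HADHA and HADHB were added after values were seen. At most 2 other genes per list were named, with at least 5 CPM, beside a panel fixed by name. The lower detection bound is 3 counts, 0.102 to 0.204 CPM per library, for counting error only. Positions and shared 31-base stretches come from GENCODE on GRCh38 and promoters from RefSeq on GRCh38.p14. Some genes of the lists are not reported here by name. Alternatives were other scalings and filters, DESeq2 1.42.0, limma 3.58.1 voom, a single fit, a block and each library left out.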

Additional observations from a re-analysis of the deposited data

Results flagged for a closer look

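The effect of MitoQ differed between the lines, by the interaction test, for 17 of 32 members, against 34.1% of 17094 genes tested. Line and passage cannot be told apart there, and the split of signs depended on the scaling. On the log2 scale, SKBR3 minus MDA-MB-231, the values were -0.91 for CRAT, -0.74 for ECI1, -0.43 for ACAD11, -0.42 for ACAD10, -0.37 for ACAD8, -0.36 for PPARD, -0.27 for CPT1A and -0.26 for HADHB. Positive values were found for ECHS1 (0.22), ACSL1 (0.29), HADHA (0.35), ACSL5 (0.44), ACAA1 (0.45), ACAA2 (0.53), ACADSB (0.59), ACAT1 (0.66) and ECI2 (0.66). CRAT alone among the members was called in opposite directions in the 2 lines.

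A single library lay far from the rest of its group for 3 members. ACAD11 had 23.5 CPM in MDA-MB-231 MitoQ 1, against 18.8 to 19.7 CPM in the other MitoQ libraries. ECI1 had 24 CPM in MDA-MB-231 control 1, against 20 to 20.9 CPM in the other controls, and ACSL1 had 44 CPM in MDA-MB-231 MitoQ 2, against 38.5 to 40 CPM in the other MitoQ libraries. Of 64 groups of 5 libraries checked 3 were singled out, and chance alone gives about 1 in 20.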

How the results depend on the processing

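Over the settings tried, the members called in MDA-MB-231 stayed at 9 to 10 higher and 16 to 19 lower, and those called lower in SKBR3 at 12 to 16. Higher members in SKBR3 numbered 4, but 5 with no filter on low counts, where ECI1 was added, 7 with limma voom and quality weights, 6 with a replicate block and 4 to 8 when a library was left out, 8 being the count without control 3. All genes called in SKBR3 numbered 4202, but 2788 in a single fit over all libraries, 2436 at a threshold of 0.01 and 2565 to 4547 with a library left out, 2565 being the count without MitoQ 2. Interaction calls among members stayed at 8 to 11 higher and 7 to 10 lower, and control line calls at 16 to 18 higher and 10 to 11 lower. The fitted values that changed sign were small and not called: with plain library totals ACSL5 (0.016) and PPARGC1A (0.023) in MDA-MB-231, and in the interaction the member median (-0.021), HSD17B10 (-0.007), DECR1 (-0.035) and HADH (-0.048); ACAD11 in SKBR3 with voom (0.018) and in a single fit (0.001); and ECHS1 (0.015) and ACAD8 (0.028) between control lines with a filter at 1 CPM. With single libraries left out the values that changed sign were PPARGC1A in MDA-MB-231 (-0.100 to 0.025), ACAD11 (-0.080 to 0.052), ACADSB (-0.081 to 0.041), ACSL4 (-0.036 to 0.392) and ACOX3 (-0.107 to 0.075) in SKBR3, ACADVL (-0.086 to 0.000) and ACADS (-0.078 to 1.071) in the interaction, and ACAD8 between control lines (-0.125 to 0.004).

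No pairing was used. The labels give both treatments the same replicate numbers, and the deviations of same-numbered libraries correlated at -0.0462 to 0.0194. Whether same-numbered libraries share a culture or a batch cannot be told from these values. With a replicate block 8363 genes were called in MDA-MB-231 (10 members higher and 18 lower, EHHADH being lost), 4758 in SKBR3 (6 higher and 15 lower, CPT2 and ECI1 being added), 5416 for the interaction (9 and 8) and 13843 between the controls (17 and 10, HADHA being lost). The cause of these changes was not tested. Members of low count, such as ACSL4 and ACADS in SKBR3, cannot show a change of this size at this depth.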

Other observations

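Genes on either side of SLC25A20 on chromosome 3 were read after its 0 counts in SKBR3 controls were seen. PRKAR2A, which starts at 48744597 and ends at 48847846 (GRCh38), had 11148 counts over the 3 SKBR3 controls, a pooled 182 CPM, against 229 CPM in MDA-MB-231 controls. ARIH2, from 48918821 to 48986382, had 6878 counts there, a pooled 112 CPM, against 159 CPM in MDA-MB-231 controls. SLC25A20 lies between them, from 48856931 to 48898993, with 0 counts in SKBR3 controls and 1305 over the 5 MDA-MB-231 controls, a pooled 10.1 CPM. The genes beside ACADS on chromosome 12 were also read after its values were seen. The contrast was alike there, with 12 counts over the 3 SKBR3 controls, a pooled 0.196 CPM, and 1318 over the 5 MDA-MB-231 controls, a pooled 10.2 CPM, where the neighbours UNC119B and SPPL3 had a pooled 32.3 and 27.6 CPM in SKBR3 controls and 54.7 and 49.9 CPM in MDA-MB-231 controls.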
